A study of Mus musculus with 12 samples.

Results

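Basement membranes are thin sheets of extracellular matrix on which epithelial, muscle, nerve and fat cells rest. The 33 genes followed here encode the sheet's laminins, collagens, nidogens and proteoglycans, with the proteins that bind or assemble them. They were taken by gene symbol from a table of 31099 genes, all 33 had a row, and all 33 passed the filter on low counts that left 18855 genes. They were set against each other in RNA of cells sorted from wild-type CD-1 mouse pups of both sexes at postnatal day 3. The 4 groups of 3 libraries were progenitors and preadipocytes from the perivascular fat of the thoracic aorta, and DPP4+ progenitors and ICAM1+ preadipocytes from inguinal white fat. Each library was made from a pool of mice, and pools with the same number were shared by the groups. No surface markers are given for the perivascular sort in the sources used here, so a difference between the depots and one between the sort gates cannot be told apart.

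Laminins are built from an alpha, a beta and a gamma chain and form the sheet's first network at the cell surface. Collagen IV forms a second network, and nidogens and perlecan tie the networks together. Each mature fat cell is wrapped in such a sheet, and cells on their way to becoming fat cells are known to build it as they leave a fibrillar, fibroblast-like matrix. Integrins and dystroglycan hold the cell to it.

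Total counts ran from 15614628 to 25674461 per library. Levels are CPM, a gene's counts relative to the size of its library, where TMM factors correct the size for the library's makeup. Changes are log2 fold changes with their standard error (SE) from edgeR's quasi-likelihood test, and a gene was called at a Benjamini-Hochberg adjusted p under 0.05 over all 18855 genes. The p-values measure the spread between libraries within groups. The pool numbers shared by the groups enter only in an alternative run. The sort was checked on its own markers. Dpp4 was at 1510 ± 72.7 CPM (SD, n = 3) in DPP4+ progenitors and at 32 ± 4.42 in ICAM1+ preadipocytes, and Icam1 was at 61.7 ± 15.8 and 497 ± 11.1. Dpp4 was at 89.4 ± 7.57 CPM in perivascular progenitors (log2 -4.08 against DPP4+ progenitors, adjusted p = 6.88e-07) and at 5.08 ± 2.25 in perivascular preadipocytes. Icam1 was at 39.5 ± 11.9 CPM in perivascular preadipocytes (log2 -3.65 against ICAM1+ preadipocytes, adjusted p = 6.15e-07). The stages of the perivascular groups are those of their labels. Pdgfra, a receptor of fibroblastic adipose cells, was at 493 ± 47.5 CPM in DPP4+ progenitors, 623 ± 117 in ICAM1+ preadipocytes, 590 ± 177 in the perivascular progenitors and 174 ± 61.2 in the perivascular preadipocytes.

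An earlier analysis of these data found 3 libraries to stand apart: DPP4+ progenitor library 2, perivascular progenitor library 1 and perivascular preadipocyte library 1. Perivascular preadipocyte library 1 had the highest summed level of 8 fibroblast and progenitor markers in its group, 24530 CPM against 12970 and 10540, and the lowest sum of 8 fat cell markers, 2799 against 6110 and 6851. Perivascular progenitor library 1 had 37750 CPM of the fibroblast and progenitor markers against 58760 and 55060. DPP4+ progenitor library 2 had 259 CPM of 5 mast cell markers against 57.8 and 49.1.

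Markers of other cells that make basement membranes also differed between the groups, and their part in the results was not tested. The sum of 8 endothelial markers was 764 to 975 CPM in DPP4+ progenitors, 161 to 200 in ICAM1+ preadipocytes, 222 to 355 in perivascular progenitors and 64.5 to 107 in perivascular preadipocytes. In DPP4+ progenitors most of this sum was Tek, at 684 ± 60.8 CPM, and Cdh5, a defining endothelial gene, was at 11.4 CPM there. Of the 8, 4 were called lower and 1 higher in perivascular than in DPP4+ progenitors (11.8% and 13% of all genes). The higher one was Vwf, at 68.4 ± 34.0 against 23.7 ± 8.0 CPM (log2 1.53, adjusted p = 0.00823). Between the preadipocytes 3 were lower and 1, again Vwf, was higher (21.4% and 23.5% of all genes). The 8 Schwann and neural markers summed to 203 to 232 CPM in ICAM1+ preadipocytes, 78.7 to 165 in DPP4+ progenitors, 44.9 to 70.1 in perivascular progenitors and 29.5 to 44.5 in perivascular preadipocytes. The 8 mesothelial markers summed to 130 to 236 CPM in perivascular progenitors, 32 to 74.5 in perivascular preadipocytes and 30.4 to 45.7 over the 6 inguinal libraries. Of these 8, 5 were called higher and 0 lower in perivascular than in DPP4+ progenitors (13% and 11.8% of all genes). Between the preadipocytes 5 were higher and 3 lower (23.5% and 21.4% of all genes), with a median of 4.31 (all genes 0.04). Msln was at 10.04 ± 5.96 CPM in perivascular against 0.335 ± 0.169 in ICAM1+ preadipocytes, and Upk3b at 18.7 ± 8.0 against 1.47 ± 0.294. Krt8 was lower there, at 0.962 ± 0.416 against 11.5 ± 1.71 CPM. The 8 pericyte markers were at 888 to 960 CPM in DPP4+ progenitors, 586 to 702 in ICAM1+ preadipocytes, 424 to 689 in perivascular progenitors and 229 to 565 in perivascular preadipocytes. The 8 smooth muscle markers were at 185 to 315, 439 to 559, 283 to 408 and 381 to 583 CPM in the same order. The 8 fat cell markers summed to 868 to 1204, 3513 to 3925, 1863 to 1977 and 2799 to 6851 CPM in that order, and the 8 fibroblast and progenitor markers to 75480 to 94010, 44680 to 50670, 37750 to 58760 and 10540 to 24530. Among the fat cell markers, 7 were called higher and 1 lower in perivascular than in ICAM1+ preadipocytes (23.5% and 21.4% of all genes). Their median log2 fold change there was 4.04 (all genes 0.04). Adipoq was at 763 ± 398 against 27.8 ± 5.92 CPM, and Plin1 at 131 ± 64.8 against 4.94 ± 0.927. In the pericyte sum of DPP4+ progenitors Kcnj8 alone was at 493 ± 32.8 CPM. Of the 8 pericyte markers 2, Cspg4 and Notch3, were called higher and 1, Kcnj8, lower in perivascular than in DPP4+ progenitors (13% and 11.8% of all genes). From DPP4+ to ICAM1+ cells 3 were higher and 2 lower (9.34% and 8.61% of all genes), with a median of 0.70. The 6 epithelial markers summed to at most 23.0 CPM in any library, the 7 haematopoietic markers to at most 175, and the 5 of 7 skeletal muscle markers in the table to at most 49.6. No marker of these lists that was in the table was at 0 in all libraries. In bulk RNA, fewer cells of a type and less RNA per cell cannot be told apart.

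The perivascular cells carried less RNA than the inguinal cells at both stages for 9 genes, the laminin chains Lama2, Lama4, Lamb1 and Lamc1 with Nid1, Hspg2 (perlecan), Col18a1, Tinagl1 and Pxdn. Smoc1, Smoc2 and Fras1 were higher in them at both stages. The share of all genes called in the same direction at both stages is not given here, so these counts have no background beside them. In the inguinal cells Col4a1 and Col4a2 of collagen IV, collagen XV, collagen XVIII, Nid2, Agrn, Smoc1 and Frem1 rose from DPP4+ progenitors to ICAM1+ preadipocytes. In the perivascular cells Smoc1 rose and Nid2 fell, and the other 6 of these 8 genes had no call. Together the 33 genes took 2.72 to 2.73% of the counts in DPP4+ progenitors, 2.62 to 2.82% in ICAM1+ preadipocytes and 2.29 to 2.34% in perivascular progenitors. In perivascular preadipocytes they took 2.32%, 1.31% and 1.07%. Most of this was Sparc and Nid1, and without them the shares were 0.264 to 0.930% over the 12 libraries, highest in the 3 ICAM1+ libraries.

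Of the 33 genes, 9 were higher in perivascular than in DPP4+ progenitors and 11 were lower, where 13% and 11.8% of all genes tested were called. Between the preadipocytes, 3 were higher in the perivascular cells and 16 were lower, against 23.5% and 21.4% of all genes. The members' median log2 fold change was 0.24 between the progenitors and -0.89 between the preadipocytes, with 0.05 and 0.04 over all genes. From perivascular progenitors to preadipocytes 1 member was higher and 10 were lower, against 16.8% and 16.1% of all genes, with a median of -0.54 (all genes -0.05). From DPP4+ to ICAM1+ cells 8 were higher and 4 lower, against 9.34% and 8.61% of all genes, with a median of 0.07 (all genes 0.02). The stage change itself differed between the depots for 11 members, 2 with a positive and 9 with a negative difference, where 6.37% and 8.66% of all genes were called. The 5 comparisons are made from the same 4 groups, so each depot comparison shares libraries with each stage comparison. Without the 3 libraries named above, 23 members were lower and 2 higher in perivascular preadipocytes than in progenitors, 13 rose and 8 fell in the inguinal cells, and 22 had a negative difference of stage changes. These last counts come from 3 groups of 2 libraries and 1 of 3. The share of all genes called in that run is not given here, so these counts have no background beside them. With library totals in place of TMM factors, 13 members were higher and 7 lower between the progenitors. That setting called 7548 of all genes there, against 4687 with TMM factors. Over all genes the median there was then 0.48 in place of 0.05, and the share of called genes that were higher went from 52.5 to 83.7% (preadipocytes 52.2 to 66.5%, perivascular stage 51.1 to 66.3%, inguinal stage 52.0 to 82.6%, difference of stages 42.4 to 23.3%).

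**Figure D1:**
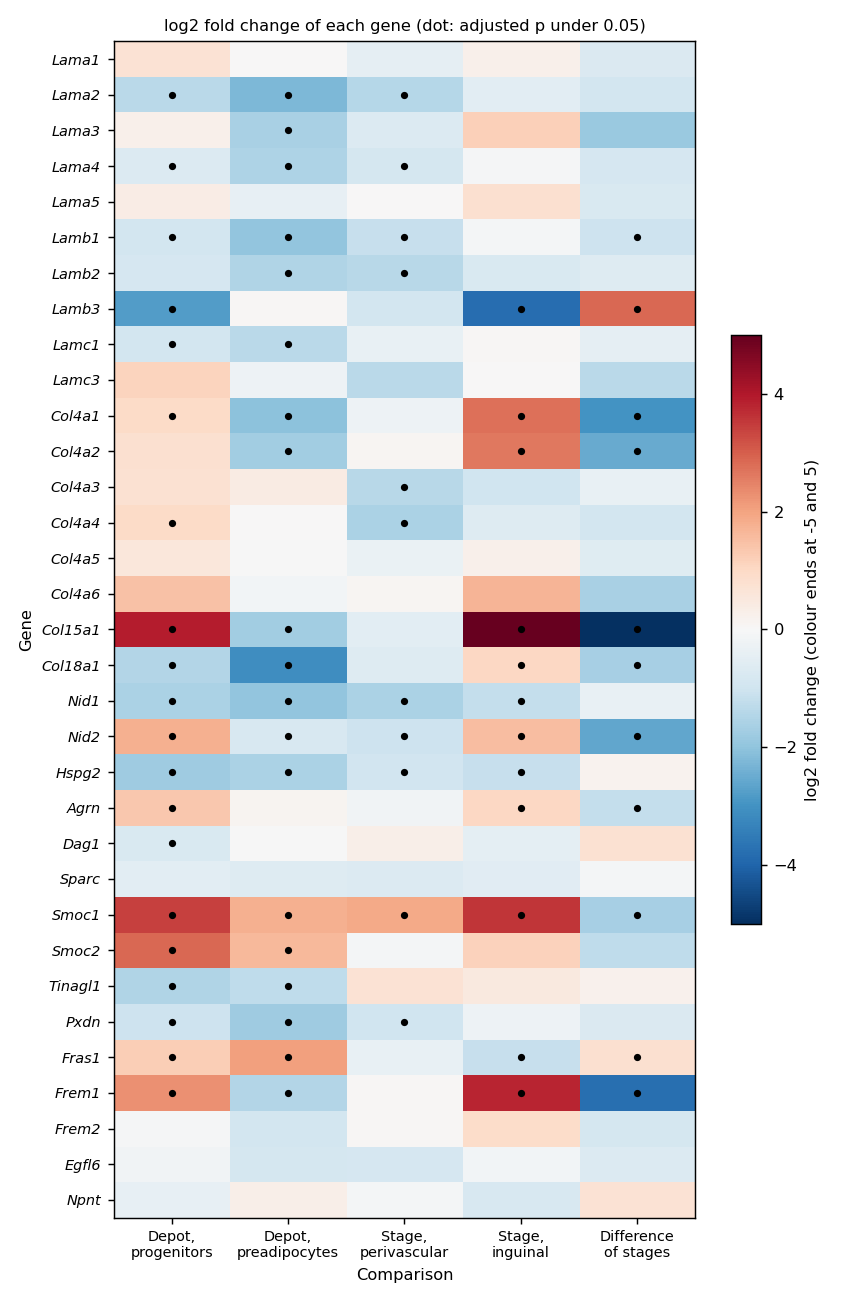
Colour matrix of the log2 fold change of each of the 33 genes (rows) in 5 comparisons (columns): perivascular against inguinal among progenitors and among preadipocytes, preadipocytes against progenitors in perivascular and in inguinal fat, and the difference of these 2 stage changes. Red is higher, blue is lower, and a dot marks an adjusted p under 0.05; Lama2, Lama4, Lamb1 and Lamc1 are blue with dots in both depot columns, and Smoc1 is red with dots in all 4 two-group columns.

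Mean levels per exon length ran from 0.0765 CPM per kb for Frem2 in perivascular progenitors to 5727 for Sparc in DPP4+ progenitors. Sparc, whose product binds collagen and calcium at the cell surface, was the most abundant, with a mean of 2445 to 5727 CPM per kb of exon over the 4 groups. Nid1 followed at 131 to 1173, and Frem2 and Lama1 were at most 0.151 in any group. All comparisons of level between genes below are per kb of exon, and all levels of a single gene are CPM.

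**Figure D2:**
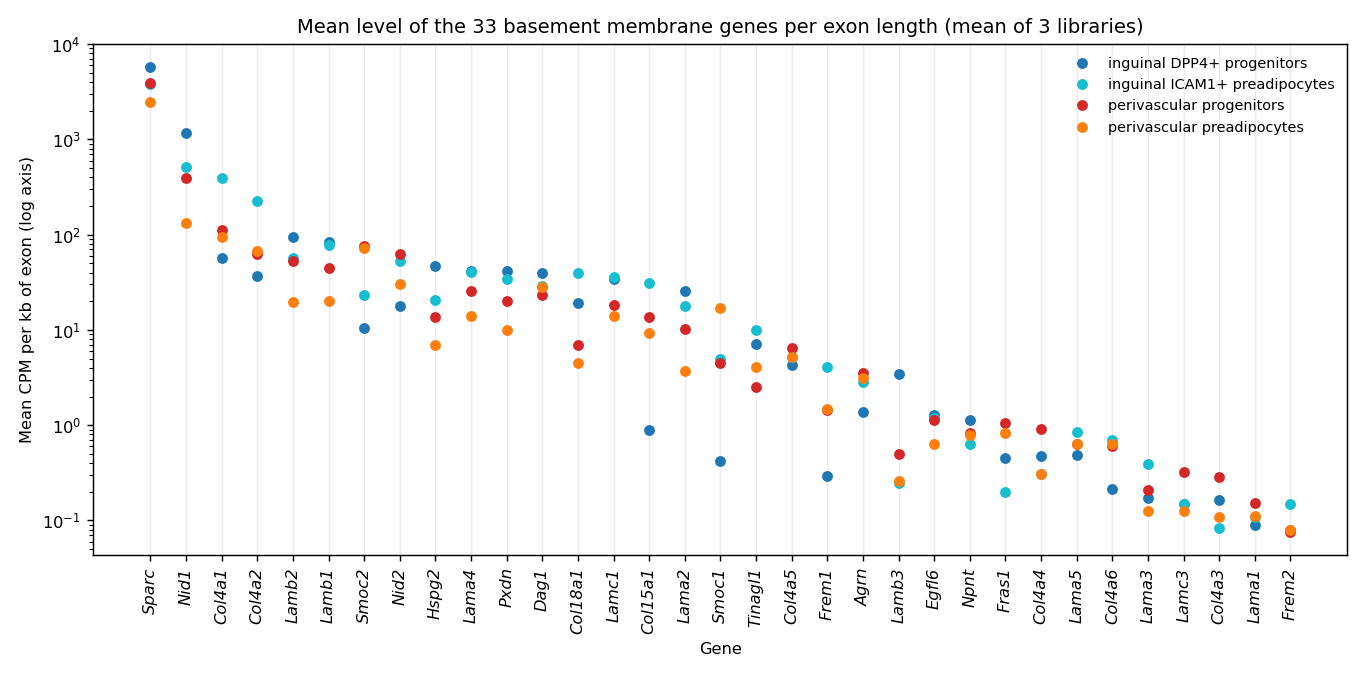
Mean level of each of the 33 genes in each of the 4 groups, as CPM per kb of exon on a log axis, with the genes in order of their highest group mean (3 libraries a group). Sparc and Nid1 lie at the top in all groups, and Col15a1, Smoc1 and Frem1 show wide gaps between DPP4+ progenitors (dark blue) and the other 3 groups.

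Among the laminin alpha chains, Lama4 and Lama2 made up nearly all of the RNA. Per kb of exon Lama4 was 61.4 ± 1.1% of the alpha chain total in DPP4+ progenitors, 67.9 ± 2.4% in ICAM1+ preadipocytes, 70.3 ± 2.1% in the perivascular progenitors and 75.6 ± 5.4% in the perivascular preadipocytes (SD, n = 3). Lama2, the alpha chain of muscle and nerve laminin, made up 37.5 ± 0.68%, 29.8 ± 2.5%, 27.1 ± 1.9% and 19.6 ± 6.1% in the same order. Lama5, Lama3 and Lama1 held at most 4.26%, 0.760% and 0.735% in any library.

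Lama2 (chromosome 10, 26980036 to 27619758) stood at 414, 466 and 370 CPM in the 3 DPP4+ libraries and at 232, 293 and 352 in the ICAM1+ libraries. It was at 92.1, 204 and 200 CPM in perivascular progenitors and at 92.1, 48.7 and 41.7 in perivascular preadipocytes. All perivascular libraries lay below the inguinal ones of their stage, and library 1 of the perivascular preadipocytes stood at the level of library 1 of the perivascular progenitors. Lama2 was lower in perivascular cells by a log2 fold change of -1.33 (SE 0.33, adjusted p = 0.0102) among progenitors and -2.26 (SE 0.34, adjusted p = 0.00026) among preadipocytes, and it fell with stage in the perivascular cells (-1.44, SE 0.33, adjusted p = 0.00661). Lama4 (chromosome 10, 38965515 to 39110188), the alpha chain of vascular and fat cell laminin, was at 511, 541 and 458 CPM in DPP4+ progenitors and at 446, 481 and 534 in ICAM1+ preadipocytes. It was at 198, 360 and 374 CPM in perivascular progenitors and at 178, 185 and 143 in perivascular preadipocytes. The inguinal groups overlapped, and the perivascular groups lay below them and apart from each other. Its log2 fold change was -0.70 (SE 0.22, adjusted p = 0.0324) between the progenitors, -1.53 (SE 0.22, adjusted p = 0.000188) between the preadipocytes and -0.88 (SE 0.22, adjusted p = 0.00908) from perivascular progenitors to preadipocytes. The progenitor call of Lama4 was lost under 8 of 21 alternative settings, among them library totals in place of TMM factors (-0.27, adjusted p = 0.329; adjusted p 0.00536 to 0.329 over the 21). Its perivascular fall was lost with the 2 groups alone (-0.86, adjusted p = 0.0741; 5.91e-06 to 0.0741 over the 21).

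Of the beta and gamma chains, Lamb1 and Lamc1 were lower in perivascular cells at both stages, as Lama4 was. Lamb1 (chromosome 12, 31265234 to 31329644), the widespread beta chain, was at 768, 878 and 872 CPM in DPP4+ progenitors and 691, 785 and 847 in ICAM1+ preadipocytes. It was at 296, 514 and 520 CPM in perivascular progenitors and 222, 202 and 173 in perivascular preadipocytes. The perivascular groups overlapped neither with the inguinal groups nor with each other. Lamb1 was 1.89-fold lower in perivascular progenitors (log2 -0.92, SE 0.21, adjusted p = 0.0057) and 3.90-fold lower in perivascular preadipocytes (log2 -1.96, SE 0.21, adjusted p = 2.82e-05). The progenitor call was lost with library totals (-0.49, adjusted p = 0.0651; adjusted p 0.000277 to 0.0651 over the 21 alternatives). From progenitors to preadipocytes Lamb1 fell in the perivascular cells (-1.16, SE 0.21, adjusted p = 0.00173) and was at -0.12 (SE 0.21, adjusted p = 0.77) in the inguinal cells. The difference of these changes was -1.04 (SE 0.29, adjusted p = 0.0317), and its adjusted p was 0.0515 with a replicate block for the shared pools (2.55e-05 to 0.085 over 20 alternatives).

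Lamb2 (chromosome 9, 108479736 to 108490530), the beta chain of nerve, muscle and kidney laminins, was at 575, 591 and 566 CPM in DPP4+ progenitors and at 297, 329 and 400 in ICAM1+ preadipocytes. It was at 210, 374 and 373 CPM in perivascular progenitors and at 211, 96.8 and 53.8 in perivascular preadipocytes, where library 1 again matched a progenitor library. It was lower in perivascular than in ICAM1+ preadipocytes (log2 -1.51, SE 0.39, adjusted p = 0.00737) and fell with stage in the perivascular cells (-1.41, SE 0.39, adjusted p = 0.0152). The fall was -2.38 without the 3 libraries that stood apart. Its call was lost under 3 of 21 alternatives, with the 2 groups alone, without perivascular progenitor library 3 (adjusted p = 0.0531) and without perivascular preadipocyte library 2 (adjusted p = 0.0668), with adjusted p 4.89e-07 to 0.0835 over the 21. Per kb, Lamb1 was 46.2 ± 1.9% of the beta chains in DPP4+ progenitors and 45.8 ± 0.24% in perivascular progenitors, 58.1 ± 1.6% in ICAM1+ preadipocytes, and 39.1%, 55.6% and 65.6% in the 3 perivascular preadipocyte libraries. Lamb2 led per kb in 7 of the 12 libraries, and without division by exon length Lamb1 led in all 12.

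Lamb3 (chromosome 1, 193207699 to 193343878), the beta chain of epithelial anchoring laminin, was a gene of the DPP4+ progenitors. It was at 25.3, 23.1 and 20.5 CPM there, at 0.980, 1.43 and 2.47 in ICAM1+ preadipocytes, at 2.48, 3.05 and 4.38 in perivascular progenitors and at 0.934, 2.20 and 2.04 in perivascular preadipocytes. All DPP4+ libraries lay above all others. It was 14-fold lower in ICAM1+ than in DPP4+ cells (log2 -3.81, SE 0.38, adjusted p = 1.97e-05) and 6.94-fold lower in perivascular than in DPP4+ progenitors (log2 -2.80, SE 0.36, adjusted p = 0.000101). Its fall in the perivascular cells had no call (-0.94, SE 0.37, adjusted p = 0.0672), and the stage changes differed by 2.87 (SE 0.52, adjusted p = 0.00343). Lama3, an alpha chain of epithelial laminins, was at most 4.83 CPM in any library. It was highest in ICAM1+ preadipocytes at 4.23 ± 0.719 CPM, against 1.37 ± 0.450 in perivascular preadipocytes (log2 -1.62, SE 0.58, adjusted p = 0.0374). That call was lost under 6 of 21 alternatives. The 6 epithelial markers summed to 3.07 to 11.2 CPM in DPP4+ progenitors and 16.5 to 23.0 in ICAM1+ preadipocytes.

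Lamc1 (chromosome 1, 153218922 to 153332786), the gamma chain of most laminins, was at 287, 292 and 262 CPM in DPP4+ progenitors and at 276, 303 and 306 in ICAM1+ preadipocytes. It was at 181, 131 and 137 CPM in perivascular progenitors and at 130, 117 and 98.9 in perivascular preadipocytes. Each perivascular library lay below each inguinal one. Lamc1 was lower by -0.91 (SE 0.16, adjusted p = 0.00103) among progenitors and by -1.36 (SE 0.16, adjusted p = 4.76e-05) among preadipocytes. Its stage changes had no call (perivascular -0.38, SE 0.16, adjusted p = 0.0822; inguinal 0.07, SE 0.16, adjusted p = 0.812). Lamc3 was at most 2.88 CPM in any library and had no call in the 4 comparisons of 2 groups. Its perivascular stage change (-1.35) had an adjusted p of 0.0668, and of 0.0378 with the replicate block (0.0199 to 0.219 over 20 alternatives).

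**Figure D3:**
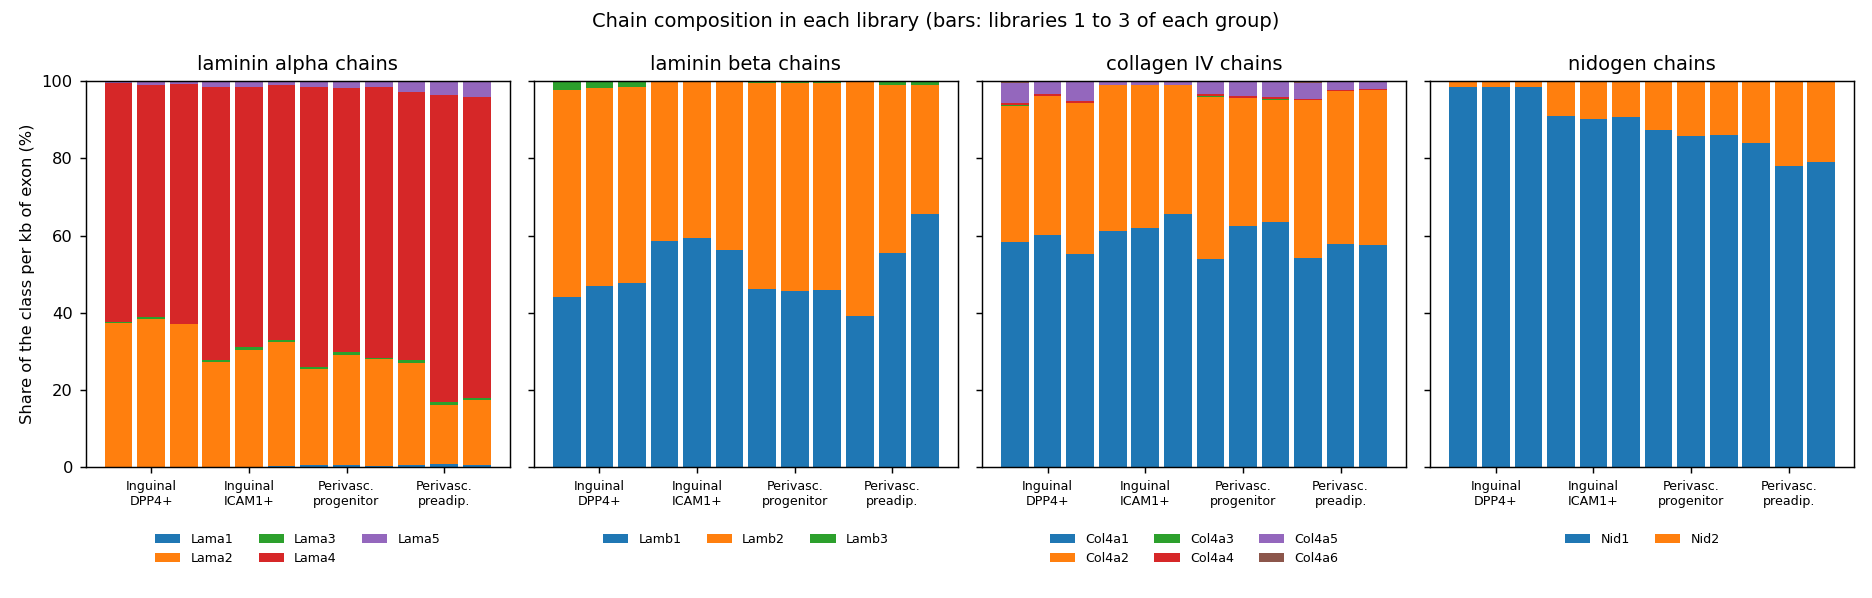
Stacked bars of the share of each chain in its class (laminin alpha, laminin beta, collagen IV, nidogen), in percent of the class total in CPM per kb of exon, with 1 bar for each of the 12 libraries. Lama4 and Lama2, Lamb1 and Lamb2, and Col4a1 and Col4a2 fill most of their classes in all libraries, while Nid2 goes from 1.51% of the nidogen RNA in DPP4+ progenitors to 19.7% in perivascular preadipocytes.

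Collagen IV rose between the stages in inguinal fat. Col4a1 (chromosome 8, 11198423 to 11312826, minus strand) and Col4a2 (chromosome 8, 11312805 to 11449287, plus strand) encode the chains of the widespread collagen IV trimer. They lie head to head and overlap by 22 bases at their starts in GENCODE release M21. The promoter windows of RefSeq (GRCm38.p6, 250 bases before to 50 after each gene's start) are shown because the RNAs of the pair moved together. They share 78 bases (chr8:11312777-11312854). Capitals mark matches, on either strand, to the CCAAT box (CCAAT) and the GC box (GGGCGG).
Col4a1 (chr8:11312777-11313076, minus strand): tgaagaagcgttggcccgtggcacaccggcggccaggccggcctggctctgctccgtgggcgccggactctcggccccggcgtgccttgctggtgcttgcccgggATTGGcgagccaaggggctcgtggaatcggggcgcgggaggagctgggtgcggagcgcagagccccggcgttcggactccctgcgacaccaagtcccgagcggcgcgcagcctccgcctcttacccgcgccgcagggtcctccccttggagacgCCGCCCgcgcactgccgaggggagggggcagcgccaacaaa
Col4a2 (chr8:11312555-11312854, plus strand): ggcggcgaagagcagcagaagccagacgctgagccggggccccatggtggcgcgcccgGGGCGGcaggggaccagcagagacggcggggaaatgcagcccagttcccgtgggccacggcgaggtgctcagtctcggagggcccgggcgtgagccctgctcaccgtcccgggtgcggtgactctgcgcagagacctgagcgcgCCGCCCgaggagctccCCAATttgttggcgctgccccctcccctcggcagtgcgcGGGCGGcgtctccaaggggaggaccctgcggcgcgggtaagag
The Col4a1 window held 1 CCAAT box and 1 GC box, and the Col4a2 window held 1 and 3. The GC box of Col4a1 and the last one of Col4a2 are the same site, inside the shared bases. The CCAAT box occurred in 37.4% of 32851 RefSeq promoter windows of this length and the GC box in 35.7%. The TATA box (TATAAA, in 13.6% of windows) and the AP-1 site (TGANTCA, in 7.81%) were in neither, and the motifs do not overlap one another here. Of the 30 windows found for 23 of the 33 genes, 18 held a GC box, 12 a CCAAT box, 1 an AP-1 site and 0 a TATA box.

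Col4a1 was at 327, 554 and 408 CPM in DPP4+ progenitors and at 2598, 2883 and 3297 in ICAM1+ preadipocytes. It was at 494, 1003 and 983 CPM in perivascular progenitors and at 1005, 596 and 500 in perivascular preadipocytes. The ICAM1+ libraries stood well above all others, and the perivascular groups overlapped each other. Col4a2 was at 174, 293 and 256 CPM in DPP4+ progenitors, 1419, 1532 and 1494 in ICAM1+ preadipocytes, 341, 469 and 438 in the perivascular progenitors and 669, 361 and 308 in the perivascular preadipocytes. Both were higher in ICAM1+ than in DPP4+ cells, Col4a1 by 6.81-fold (log2 2.77, SE 0.33, adjusted p = 8.8e-05) and Col4a2 by 6.15-fold (log2 2.62, SE 0.29, adjusted p = 4.47e-05). In the perivascular cells the stage change was -0.24 (SE 0.31, adjusted p = 0.59) for Col4a1 and 0.10 (SE 0.27, adjusted p = 0.807) for Col4a2. The stage changes differed between the depots by -3.01 (SE 0.45, adjusted p = 0.00113) and -2.52 (SE 0.39, adjusted p = 0.0014). Without the 3 libraries that stood apart both perivascular changes were negative, -0.92 (adjusted p = 9.22e-05; 9.22e-05 to 0.894 over 21 alternatives) for Col4a1 and -0.50 (adjusted p = 0.0139; 0.0139 to 0.893) for Col4a2.

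Perivascular preadipocytes had 4.18-fold less Col4a1 (log2 -2.06, SE 0.33, adjusted p = 0.000351) and 3.32-fold less Col4a2 (log2 -1.73, SE 0.28, adjusted p = 0.000419) than ICAM1+ preadipocytes. Among progenitors Col4a1 was higher in the perivascular cells by 0.94 (SE 0.32, adjusted p = 0.0451) and Col4a2 by 0.79 (SE 0.28, adjusted p = 0.0537), the latter without a call. The Col4a1 libraries of these 2 groups overlapped, and its call was lost under 11 of 21 alternatives, with the replicate block among them (adjusted p = 0.0703; 2.79e-06 to 0.161 over the 21). Per kb of exon the ratio of Col4a1 to Col4a2 lay between 1.28 and 1.99 in all 12 libraries, while the level of Col4a1 spanned 327 to 3297 CPM. Across the 12 libraries, which include the group differences, Pearson's r of the log2 levels was 0.984, given as a description.

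The other collagen IV chains were rare in all groups. Col4a5 was 0.840 ± 0.033% of collagen IV RNA per kb in ICAM1+ preadipocytes and 4.5 ± 1.0% in DPP4+ progenitors, and Col4a3, Col4a4 and Col4a6 were each at most 0.630% in any library. Col4a4 (chromosome 1, 82448423 to 82586849), a chain of the kidney-type collagen IV, stayed under a mean of 10 CPM in all groups. It was at 9.76 ± 1.36 CPM in perivascular progenitors, 5.09 ± 0.237 in DPP4+ progenitors, 3.24 ± 0.938 in perivascular preadipocytes and 3.23 ± 0.629 in ICAM1+ preadipocytes. It was higher in perivascular than in DPP4+ progenitors (log2 0.94, SE 0.24, adjusted p = 0.0134) and fell with stage in the perivascular cells (-1.59, SE 0.25, adjusted p = 0.000845). The progenitor call of Col4a4 was lost without DPP4+ library 1 (adjusted p = 0.0501) and without perivascular progenitor library 2 (adjusted p = 0.0519; 0.000651 to 0.0519 over 21 alternatives). Col4a3, its neighbour at 71 bases from it on the other strand, fell with stage there too, from 2.85 ± 0.132 to 1.09 ± 0.247 CPM (-1.38, SE 0.37, adjusted p = 0.0131). The fall of Col4a3 was lost without perivascular preadipocyte library 3 (-1.24, adjusted p = 0.0539; 0.00294 to 0.0539 over 20 alternatives). Of the exon length of Col4a3 5.65% overlaps another gene. Col4a5 and Col4a6, which lie 1308 bases apart on chromosome X, had no call in any comparison. Both were high in library 1 of the perivascular preadipocytes, Col4a5 at 67.7 CPM against 21 and 15.5, and Col4a6 at 12.1 against 2.05 and 1.13. Without that library Col4a5 fell with stage in the perivascular cells by 1.30 on the log2 scale (adjusted p = 0.00484; 1.97e-06 to 0.996 over 21 alternatives).

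**Figure D4:**
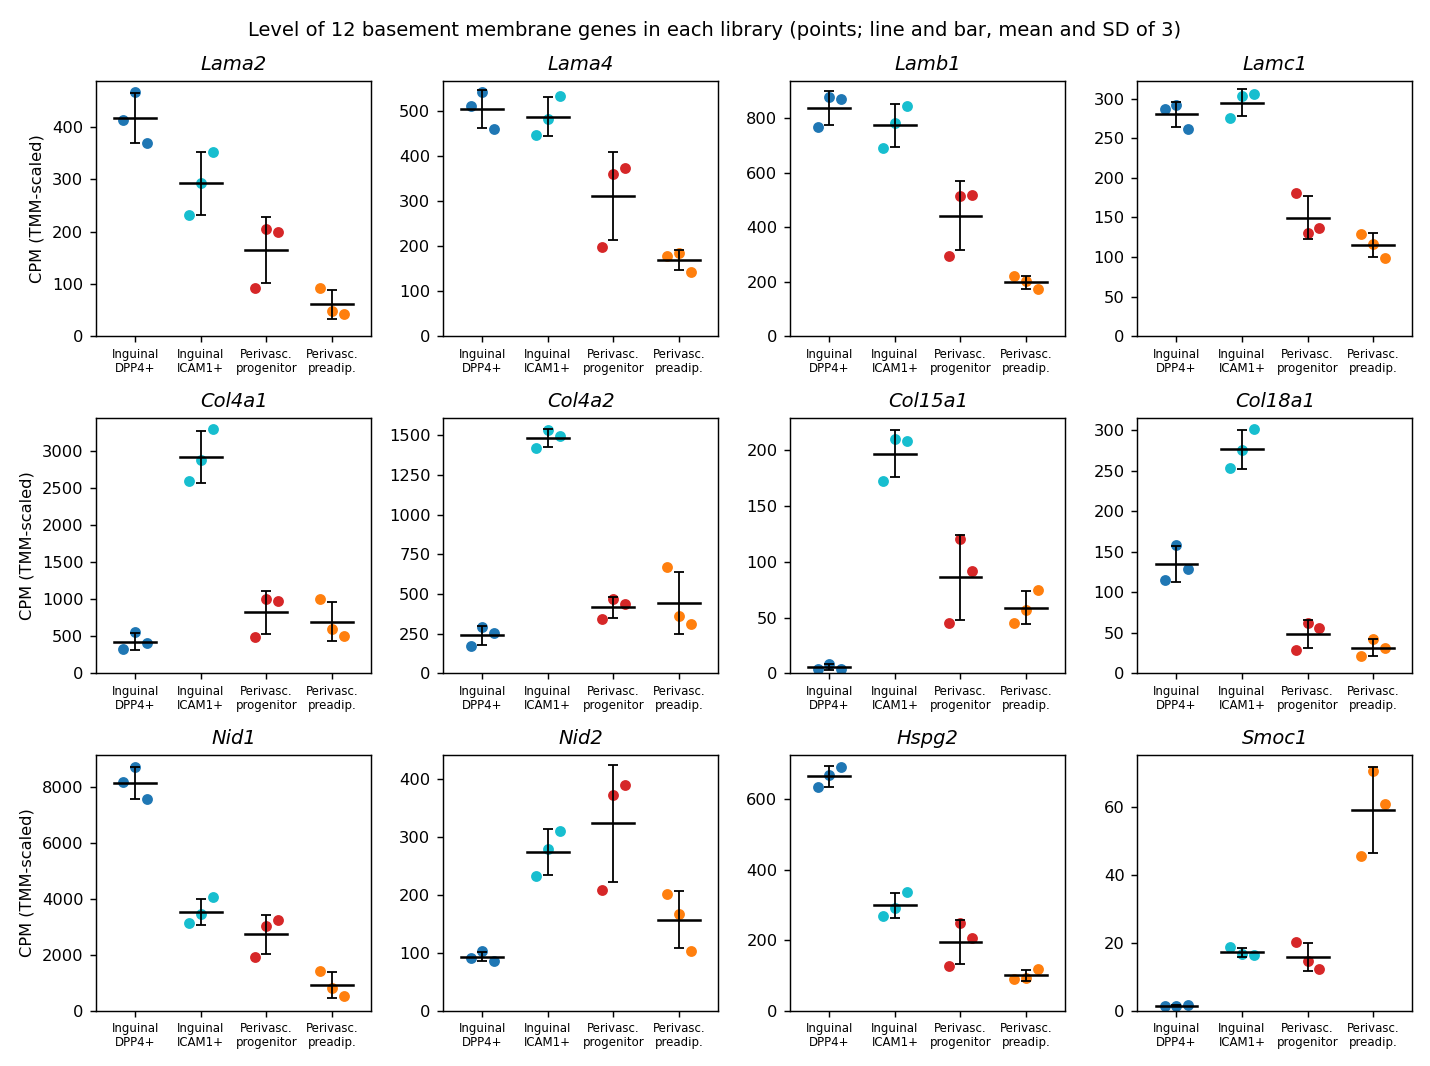
CPM (TMM-scaled) of 12 of the genes in each library (points, in order of library 1 to 3), with the mean (line) and SD (bar) of the 3 libraries of a group, on linear axes from 0. Col4a1, Col4a2, Col15a1 and Col18a1 are highest in ICAM1+ preadipocytes, Lama2, Nid1 and Hspg2 are highest in DPP4+ progenitors, and Smoc1 is highest in perivascular preadipocytes at 45.5 to 70.6 CPM.

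Collagens XV and XVIII are related collagens with heparan or chondroitin sulfate chains that sit at the edge of the basement membrane, and each yields a fragment that restrains vessel growth. Col15a1 (chromosome 4, 47208161 to 47313167) had the largest called stage change of the set in inguinal fat. Its RefSeq promoter window, shown for that reason, held 0 matches to the CCAAT box, GC box, TATA box and AP-1 site. The window ends before the GENCODE M21 start of the gene (47208161), so the bases just before that start were not searched.
Col15a1 (chr4:47207762-47208061, plus strand): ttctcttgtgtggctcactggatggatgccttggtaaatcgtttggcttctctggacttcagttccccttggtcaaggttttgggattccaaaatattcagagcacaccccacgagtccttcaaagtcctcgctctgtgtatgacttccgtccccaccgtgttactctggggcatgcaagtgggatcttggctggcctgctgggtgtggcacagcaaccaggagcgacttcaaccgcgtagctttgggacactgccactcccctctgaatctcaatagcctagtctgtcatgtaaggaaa
Col15a1 was at 3.86, 8.66 and 4.43 CPM in DPP4+ progenitors and at 173, 210 and 208 in ICAM1+ preadipocytes. It was at 45.2, 121 and 92.2 CPM in perivascular progenitors and at 45.5, 56.7 and 74.8 in perivascular preadipocytes. The DPP4+ libraries lay below all others and the ICAM1+ libraries above, while the perivascular groups overlapped. It rose 34.8-fold from DPP4+ to ICAM1+ cells (log2 5.12, SE 0.41, adjusted p = 3.47e-06), and its change in the perivascular cells had no call (-0.55, SE 0.34, adjusted p = 0.237). The difference of -5.67 (SE 0.52, adjusted p = 3.72e-05) was the largest in size among the 33 genes. Col15a1 was 15.2-fold higher in perivascular than in DPP4+ progenitors (log2 3.93, SE 0.39, adjusted p = 1.37e-05) and 3.34-fold lower in perivascular than in ICAM1+ preadipocytes (log2 -1.74, SE 0.35, adjusted p = 0.00165).

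Col18a1 (chromosome 10, 77052178 to 77166548) was at 116, 159 and 129 CPM in DPP4+ progenitors, 253, 275 and 301 in ICAM1+ preadipocytes, 29.4, 62.1 and 55.8 in the perivascular progenitors and 21.8, 42.1 and 31.4 in the perivascular preadipocytes. Unlike Col15a1, it was lower in perivascular cells at both stages, by -1.46 (SE 0.28, adjusted p = 0.00204) among progenitors and -3.12 (SE 0.30, adjusted p = 1.07e-05) among preadipocytes. It rose 2.05-fold in the inguinal cells (log2 1.04, SE 0.28, adjusted p = 0.0194), a call lost under 4 of 21 alternatives. In the perivascular cells its change was -0.63 (SE 0.28, adjusted p = 0.0992), and with the replicate block it was called (-0.62, adjusted p = 0.0383; 0.00091 to 0.272 over the 21). The stage changes differed by -1.67 (SE 0.39, adjusted p = 0.0142). Per kb of exon, Col15a1 stood at 0.0368 to 0.0602 of the level of Col18a1 in DPP4+ progenitors and at 0.753 to 0.843 in ICAM1+ preadipocytes. In the 6 perivascular libraries Col15a1 was the more abundant of the pair, at 1.49 to 2.63 times Col18a1.

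The nidogens, which bridge laminin and collagen IV, moved in opposite ways in inguinal fat. The promoter windows of Nid1 and of Hspg2, which encodes the proteoglycan perlecan, are shown because these genes were lower in perivascular cells at both stages and in preadipocytes of both depots. Capitals mark the same motifs as above.
Nid1 (chr13:13437352-13437651, plus strand): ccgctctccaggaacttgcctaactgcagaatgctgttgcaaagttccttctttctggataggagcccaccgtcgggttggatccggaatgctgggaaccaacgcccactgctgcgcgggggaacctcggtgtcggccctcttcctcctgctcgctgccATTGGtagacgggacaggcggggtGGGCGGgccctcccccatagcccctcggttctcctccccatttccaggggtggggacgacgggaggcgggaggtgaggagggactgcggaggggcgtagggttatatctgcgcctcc
Hspg2 (chr4:137468553-137468852, plus strand): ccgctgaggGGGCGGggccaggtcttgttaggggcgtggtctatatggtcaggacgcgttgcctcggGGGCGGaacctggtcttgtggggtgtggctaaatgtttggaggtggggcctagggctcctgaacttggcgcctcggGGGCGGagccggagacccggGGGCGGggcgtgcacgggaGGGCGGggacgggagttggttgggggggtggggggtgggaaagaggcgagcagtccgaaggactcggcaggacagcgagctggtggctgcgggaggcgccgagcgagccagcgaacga
The Nid1 window held 1 CCAAT box and 1 GC box, and the Hspg2 window 5 GC boxes and 0 CCAAT boxes.

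Nid1 (chromosome 13, 13437551 to 13512269) was at 8185, 8693 and 7557 CPM in DPP4+ progenitors and at 3118, 3440 and 4046 in ICAM1+ preadipocytes. It was at 1927, 3020 and 3227 CPM in perivascular progenitors and at 1414, 795 and 521 in perivascular preadipocytes. All 3 DPP4+ libraries were above all others, and the perivascular preadipocytes were below all others. Nid1 was 2.99-fold lower in perivascular than in DPP4+ progenitors (log2 -1.58, SE 0.32, adjusted p = 0.00301) and 3.88-fold lower in perivascular than in ICAM1+ preadipocytes (log2 -1.96, SE 0.33, adjusted p = 0.000495). It fell with stage in the perivascular cells (-1.58, SE 0.32, adjusted p = 0.00334) and in the inguinal cells (-1.20, SE 0.32, adjusted p = 0.0191), the latter a call lost under 5 of 21 alternatives. The difference between these falls was -0.38 (SE 0.44, adjusted p = 0.594).

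Nid2 (chromosome 14, 19751265 to 19811787) was at 91.3, 102 and 85.7 CPM in DPP4+ progenitors and at 232, 279 and 311 in ICAM1+ preadipocytes. It was at 207, 372 and 390 CPM in perivascular progenitors and at 201, 167 and 103 in perivascular preadipocytes. It rose 2.94-fold in the inguinal cells (log2 1.56, SE 0.27, adjusted p = 0.00128) and fell 2.05-fold in the perivascular cells (log2 -1.04, SE 0.26, adjusted p = 0.0106). Of the 33 genes it was the one called in opposite directions in the 2 stage comparisons, and the changes differed by -2.60 (SE 0.38, adjusted p = 0.000885). Nid2 was higher in perivascular than in DPP4+ progenitors (1.80, SE 0.27, adjusted p = 0.000356) and lower in perivascular than in ICAM1+ preadipocytes (-0.80, SE 0.26, adjusted p = 0.0259). The perivascular fall was lost with the 2 groups alone (-1.02, adjusted p = 0.0725; 8.56e-06 to 0.0725 over 21 alternatives). The call between the preadipocytes was lost under 5 of 21 alternatives (adjusted p 0.000113 to 0.0887), and 8.45% of the exon length of Nid2 overlaps another gene. Per kb of exon Nid1 exceeded Nid2 by 65.3 ± 1.7 times in DPP4+ progenitors, 9.64 ± 0.43 times in ICAM1+ preadipocytes, 6.38 ± 0.48 times in perivascular progenitors and 4.18 ± 0.92 times in perivascular preadipocytes.

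Hspg2 (chromosome 4, 137468769 to 137570630) followed Nid1. It was at 633, 667 and 692 CPM in DPP4+ progenitors, 268, 290 and 338 in ICAM1+ preadipocytes, 126, 248 and 207 in the perivascular progenitors and 90.8, 91.0 and 117 in the perivascular preadipocytes. No library of one group lay within the range of another. Hspg2 was 3.43-fold lower in perivascular progenitors (log2 -1.78, SE 0.22, adjusted p = 8.08e-05) and 2.99-fold lower in perivascular preadipocytes (log2 -1.58, SE 0.22, adjusted p = 0.000155). It fell with stage in both depots, by 0.96 (SE 0.22, adjusted p = 0.006) in the perivascular and by 1.16 (SE 0.22, adjusted p = 0.00242) in the inguinal cells on the log2 scale. The perivascular fall was lost with the 2 groups alone (-0.94, adjusted p = 0.0586; 2.2e-06 to 0.0586 over 21 alternatives).

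Agrin is a proteoglycan best known for gathering receptors at the nerve-muscle junction, and dystroglycan is its receptor and that of laminin. Agrn (chromosome 4, 156165290 to 156197488) was at 10.1, 15.9 and 12.8 CPM in DPP4+ progenitors, 23.9, 27.1 and 28.2 in ICAM1+ preadipocytes, 35.4, 26.5 and 36.3 in the perivascular progenitors and 30.5, 29.4 and 28.1 in the perivascular preadipocytes. The DPP4+ libraries lay below the other 9. Agrn was higher in perivascular than in DPP4+ progenitors (1.34, SE 0.19, adjusted p = 0.000186), rose in the inguinal cells (1.03, SE 0.19, adjusted p = 0.00167), and its stage changes differed by -1.19 (SE 0.26, adjusted p = 0.00935). Dag1 (chromosome 9, 108204634 to 108263958) was at 206, 245 and 307 CPM in DPP4+ progenitors, 173, 199 and 174 in ICAM1+ preadipocytes, 202, 123 and 118 in the perivascular progenitors and 209, 195 and 135 in the perivascular preadipocytes. Its one call, lower in perivascular than in DPP4+ progenitors (-0.78, SE 0.24, adjusted p = 0.0295), was lost under 6 of 21 alternatives, with library totals among them (-0.33, adjusted p = 0.26; 0.000313 to 0.26 over the 21).

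Sparc (chromosome 11, 55394500 to 55423183) had no call in any comparison. It was at 21660, 19350 and 24070 CPM in DPP4+ progenitors, 14350, 14450 and 14830 in ICAM1+ preadipocytes, 16550, 13500 and 14850 in the perivascular progenitors and 14450, 7151 and 6190 in the perivascular preadipocytes. Library 1 of the last group stood at the level of the ICAM1+ libraries, and the other 2 lay below all 10 remaining libraries. Without that library Sparc was lower in perivascular than in ICAM1+ preadipocytes by -1.18 (adjusted p = 2.85e-05; 3.72e-07 to 0.268 over 21 alternatives) and fell with stage in the perivascular cells by 1.20 on the log2 scale (adjusted p = 3.65e-05; 1.3e-06 to 0.292).

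The Sparc relatives Smoc1 and Smoc2, secreted calcium-binding proteins of the basement membrane of which Smoc1 is known to restrain BMP signalling, were higher in the perivascular cells at both stages. Smoc1 (chromosome 12, 81026808 to 81186414) was at 1.43, 1.29 and 1.64 CPM in DPP4+ progenitors, 18.7, 16.6 and 16.2 in ICAM1+ preadipocytes, 20.3, 14.6 and 12.3 in the perivascular progenitors and 45.5, 70.6 and 60.7 in the perivascular preadipocytes. It was the one gene of the 33 with its highest mean in perivascular preadipocytes. It was 10.8-fold higher in perivascular than in DPP4+ progenitors (log2 3.43, SE 0.25, adjusted p = 1.1e-06) and 3.43-fold higher in perivascular than in ICAM1+ preadipocytes (log2 1.78, SE 0.21, adjusted p = 5.11e-05). It rose with stage by 3.74-fold in the perivascular cells (log2 1.90, SE 0.21, adjusted p = 0.000122) and by 11.8-fold in the inguinal cells (log2 3.56, SE 0.25, adjusted p = 1.21e-06), and these rises differed by -1.65 (SE 0.32, adjusted p = 0.00517).

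Smoc2 (chromosome 17, 14279506 to 14404790) was at 56.2, 64.9 and 95.6 CPM in DPP4+ progenitors and at 177, 161 and 149 in ICAM1+ preadipocytes. It was at 788, 407 and 407 CPM in perivascular progenitors and at 967, 343 and 199 in perivascular preadipocytes, with library 1 the highest in both perivascular groups. All perivascular libraries were above all inguinal ones. Smoc2 was higher in the perivascular cells by 2.89 (SE 0.49, adjusted p = 0.000923) among progenitors and by 1.63 (SE 0.47, adjusted p = 0.0137) among preadipocytes. Without perivascular preadipocyte library 1 the second value was 0.68 with an adjusted p of 0.0806 (0.000169 to 0.0806 over 21 alternatives), and without ICAM1+ preadipocyte library 3 it was 1.57 with an adjusted p of 0.0515. Its stage changes had no call (perivascular -0.09, SE 0.46, adjusted p = 0.905; inguinal 1.17, SE 0.47, adjusted p = 0.111). Without perivascular preadipocyte library 1 the perivascular change of Smoc2 was a called fall (-1.0, adjusted p = 0.0235; 0.0235 to 0.943 over 21 alternatives). The inguinal rise was called under 6 of the 21 (adjusted p 0.000112 to 0.281), among them without perivascular preadipocyte library 1 (adjusted p = 0.0098) and without library 3 of that group (adjusted p = 0.0391).

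Tinagl1 encodes a matricellular protein bound to laminins and integrins, and Pxdn encodes peroxidasin, the enzyme that crosslinks collagen IV. Tinagl1 (chromosome 4, 130164454 to 130175122) was at 21.3, 47.0 and 24.5 CPM in DPP4+ progenitors, 39.2, 37.7 and 54.7 in ICAM1+ preadipocytes, 9.55, 11.6 and 11.8 in the perivascular progenitors and 13.9, 24.5 and 15.6 in the perivascular preadipocytes. It was lower in the perivascular cells by -1.49 (SE 0.31, adjusted p = 0.00315) and -1.29 (SE 0.30, adjusted p = 0.00428) at the 2 stages. Pxdn (chromosome 12, 29937608 to 30017658) was at 321, 430 and 442 CPM in DPP4+ progenitors, 311, 334 and 351 in ICAM1+ preadipocytes, 174, 222 and 185 in the perivascular progenitors and 144, 91.2 and 54.7 in the perivascular preadipocytes. It too was lower in perivascular cells, by -1.04 (SE 0.27, adjusted p = 0.0143) and -1.78 (SE 0.28, adjusted p = 0.000342), and it fell with stage there (-1.0, SE 0.27, adjusted p = 0.015). The first of these calls was lost with library totals (-0.60, adjusted p = 0.0827; 0.000504 to 0.0827 over 21 alternatives). It was also lost without DPP4+ library 3 (adjusted p = 0.0537). The stage call of Pxdn was lost with the 2 groups alone (adjusted p = 0.0802) and without perivascular preadipocyte library 2 (adjusted p = 0.0575; 1.36e-05 to 0.0802 over the 21).

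Fras1, Frem1 and Frem2 encode large proteins that form a complex under the skin epithelium, secreted in part by the mesenchyme. Fras1 (chromosome 5, 96373955 to 96784728) was at 8.57, 7.82 and 7.46 CPM in DPP4+ progenitors, 3.43, 4.10 and 3.03 in ICAM1+ preadipocytes, 16.2, 20.6 and 19.5 in the perivascular progenitors and 15.2, 14.2 and 14.1 in the perivascular preadipocytes. The groups did not overlap. Fras1 was higher in perivascular cells at both stages (1.24, SE 0.18, adjusted p = 0.000219; 2.04, SE 0.18, adjusted p = 6.03e-06) and fell in the inguinal cells (-1.17, SE 0.18, adjusted p = 0.000574). Its difference of stage changes of 0.80 (SE 0.25, adjusted p = 0.0468) was lost under 16 of 20 alternatives, with the replicate block among them (adjusted p = 0.0747; 0.0127 to 0.127 over the 20).

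Frem1 (chromosome 4, 82897920 to 83052339) had the pattern of Col15a1 at a lower level. It was at 2.57, 6.0 and 3.69 CPM in DPP4+ progenitors, 43.1, 57.8 and 71.4 in ICAM1+ preadipocytes, 12.8, 24.1 and 23.4 in the perivascular progenitors and 19.9, 24.9 and 17.6 in the perivascular preadipocytes. It rose 14.1-fold in the inguinal cells (log2 3.81, SE 0.35, adjusted p = 9.84e-06), was at 0.05 (SE 0.30, adjusted p = 0.918) in the perivascular cells, and the changes differed by -3.76 (SE 0.45, adjusted p = 0.000244). It was higher in perivascular than in DPP4+ progenitors (2.30, SE 0.33, adjusted p = 0.000266) and lower in perivascular than in ICAM1+ preadipocytes (-1.47, SE 0.31, adjusted p = 0.00222). Col4a1, Col15a1, Nid2 and Frem1 were the 4 genes called higher among progenitors and lower among preadipocytes in the perivascular cells, and 0 genes had the reverse. The share of all genes with either pattern is not given here, so these counts have no background beside them. The progenitor call of Col4a1 was lost under 11 of 21 alternatives and the preadipocyte call of Nid2 under 5, as given above.

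The members with no call in the 4 comparisons of 2 groups were Sparc, Col4a5 and 7 genes of low level. Lama5 was at 4.0 to 11.3 CPM over the 12 libraries, Npnt, which encodes an integrin ligand, at 2.60 to 6.76, and Egfl6, a secreted factor of the basement membrane, at 0.858 to 4.43. Lama1, Lamc3, Frem2 and Col4a6 had group means of at most 5.61 CPM. Egfl6 was at -0.89 (adjusted p = 0.0927) between the preadipocytes and gained a call under the replicate block (adjusted p = 0.0443; 0.0104 to 0.288 over 21 alternatives).

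**Figure D5:**
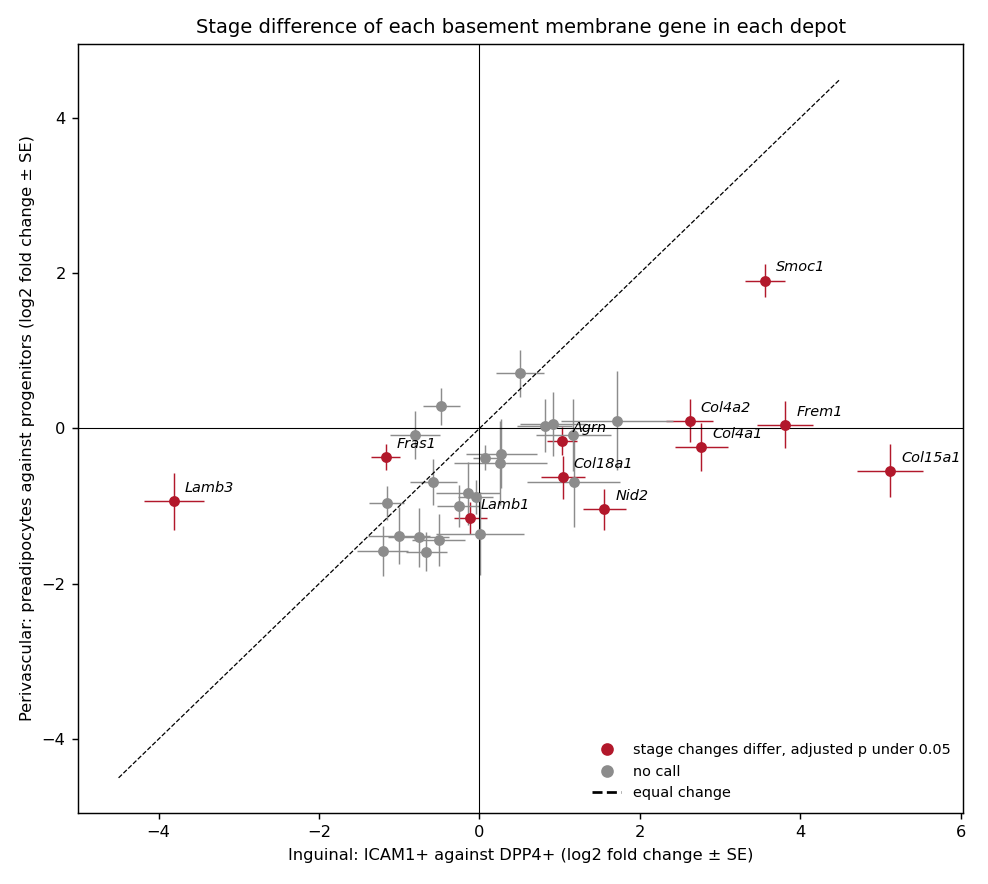
Stage change of each of the 33 genes in inguinal fat (x axis, ICAM1+ against DPP4+) and in perivascular fat (y axis, preadipocytes against progenitors), as log2 fold change with the SE of each as bars; the dashed line marks equal change and the 11 red, named genes had a called difference between the depots. Col4a1, Col4a2, Col15a1, Col18a1, Frem1, Agrn and Nid2 lie to the right of 0 in inguinal fat and at or below 0.10 in perivascular fat, and Smoc1 lies to the upper right at 3.56 and 1.90.

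The cell's receptors for the sheet were read from a list of 28 genes, all tested. Between the progenitors 10 were higher and 5 lower in the perivascular cells, between the preadipocytes 4 and 10, with stage 1 and 9 in the perivascular and 7 and 3 in the inguinal cells. Of all genes tested, 13% were called higher and 11.8% lower between the progenitors, 23.5% and 21.4% between the preadipocytes, 16.8% and 16.1% with perivascular and 9.34% and 8.61% with inguinal stage, which is the background for this and the next 3 lists. The median changes were 0.32, -0.43, -0.43 and 0.43, beside 0.05, 0.04, -0.05 and 0.02 over all genes. Itga8, an integrin alpha chain that binds nephronectin, was higher in perivascular progenitors (67.4 ± 33 against 3.77 ± 1.95 CPM, log2 4.16, adjusted p = 0.000141) and in perivascular preadipocytes (40.0 ± 25.5 against 8.40 ± 1.56, log2 2.25, adjusted p = 0.00325). Sgcb, a sarcoglycan of the dystroglycan complex, was higher in perivascular progenitors (81.5 ± 6.37 against 27.8 ± 4.23 CPM, log2 1.55, adjusted p = 0.000186). Itga2, a collagen-binding integrin chain, was lower in perivascular preadipocytes (2.25 ± 1.33 against 14 ± 0.437 CPM, log2 -2.63, adjusted p = 6.29e-05).

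Genes for the synthesis, folding and crosslinking of collagen IV and laminin (26 listed and tested) were called higher and lower for 4 and 3 genes between the progenitors, 5 and 10 between the preadipocytes, 1 and 8 with perivascular and 1 and 3 with inguinal stage. Their medians were 0.02, -0.42, -0.28 and -0.07 in that order, beside the same 0.05, 0.04, -0.05 and 0.02 over all genes. Loxl2, a lysyl oxidase that crosslinks collagen IV, was lower in perivascular progenitors (61.6 ± 26.4 against 211 ± 45.5 CPM, log2 -1.78, adjusted p = 0.000939) and preadipocytes (19.6 ± 4.78 against 132 ± 11, log2 -2.75, adjusted p = 4.22e-05). Serpinh1, the collagen chaperone HSP47, was lower in perivascular preadipocytes (578 ± 246 against 1982 ± 131 CPM, log2 -1.78, adjusted p = 0.000402). Crtap, a part of the collagen prolyl 3-hydroxylase complex, was higher there (289 ± 25.4 against 46.8 ± 5.63 CPM, log2 2.62, adjusted p = 0.0144).

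Of 26 other genes of the basement membrane and its surroundings 23 were tested. The counts higher and lower were 8 and 5 between the progenitors, 5 and 11 between the preadipocytes, 1 and 11 with perivascular and 5 and 6 with inguinal stage. Their medians were 0.07, -0.67, -0.82 and -0.38 in that order, beside the same 0.05, 0.04, -0.05 and 0.02 over all genes. Col8a2, a short-chain collagen of endothelial and corneal sheets, was higher in perivascular progenitors (44.6 ± 11.2 against 2.42 ± 1.55 CPM, log2 4.21, adjusted p = 9.32e-06). Fbln1, a laminin- and nidogen-binding fibulin, was higher in perivascular preadipocytes (261 ± 108 against 76.4 ± 8.52 CPM, log2 1.77, adjusted p = 0.00197). Thbs4, a thrombospondin, was lower in perivascular progenitors (1.02 ± 0.366 against 17.8 ± 5.47 CPM, log2 -4.12, adjusted p = 0.000258).

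Genes for the breakdown of the sheet and its control (21 of 22 tested) were lower in perivascular cells for 8 genes among progenitors and 12 among preadipocytes, and higher for 3 and 0. With stage 11 fell and 0 rose in the perivascular cells, and 7 fell and 4 rose in the inguinal cells. The medians in the 4 comparisons were -0.03, -0.83, -0.86 and -0.09, beside the same 0.05, 0.04, -0.05 and 0.02 over all genes. Timp3, an inhibitor of metalloproteinases that binds to matrix, was lower in perivascular progenitors (121 ± 23.9 against 1376 ± 60.6 CPM, log2 -3.51, adjusted p = 5.95e-05). Adamts1, a metalloproteinase, was lower in perivascular preadipocytes (244 ± 114 against 1003 ± 24.8 CPM, log2 -2.04, adjusted p = 8.74e-05). Mmp3, stromelysin, was higher in perivascular progenitors (10.4 ± 1.4 against 1.83 ± 0.588 CPM, log2 2.5, adjusted p = 0.00157) and lower in perivascular preadipocytes (4.03 ± 3.12 against 23.7 ± 2.60, log2 -2.55, adjusted p = 0.000554).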

How the data were processed

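The RNA of 12 libraries of sorted cells was read out. Per the labels, cells from collagenase and dispase digests were sorted by FACS and poly(A) RNA was amplified by SMART-Seq v4 for ultra low input. The submitters' processing notes name STAR 2.5.2a, DESeq2 1.26.0 and mm10, with no role given for each. The counting tool, its annotation and its strand setting are not stated in the sources used here. The deposited raw table holds counts, 1 per gene and library, and the authors' normalised and log-transformed tables were not used. Columns were assigned to samples by name, with 0 left over. Over genes above a minimum count in both, at most 0.888% of counts were identical between any 2 libraries.

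From these counts, genes were kept by filterByExpr (minimum count 10) and fitted by 1 quasi-likelihood model that gave each group a mean (edgeR 4.0.16, limma 3.58.1 and DESeq2 1.42.0 as alternatives, R 4.3.3). The procedure was first tested on simulated data. Contrasts were two-sided, adjusted by Benjamini-Hochberg over the 18855 genes. Exon lengths and coordinates are those of GENCODE M21, promoters those of RefSeq (GRCm38.p6). Exons of 10 members overlap another gene (at most 8.45% of a member's length), and without strand such reads cannot be assigned.

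The 33 members and all lists were chosen with earlier results of these data known. Members reaching a mean of 10 CPM in their highest group and a call in a comparison of 2 groups are given by library, the others by level; from each list up to 3 called genes with the largest depot change could be named. Libraries of the same number came from the same pool of mice, per the labels. The deviations of same-numbered libraries from their group means had a median correlation of 0.0093 (18 pairs, -0.213 to 0.153) and those of other pairs 0.00874 (36 pairs). The replicate block was an alternative, beside other scalings, filters, tests and left-out libraries.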

Additional observations from a re-analysis of the deposited data

Results flagged for a closer look

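The change from progenitors to preadipocytes differed between the depots for 11 of the 33 genes, by the test of the difference itself (edgeR, adjusted p under 0.05). The difference, perivascular minus inguinal log2 change, was -5.667 for Col15a1, -3.764 for Frem1, -3.007 for Col4a1, -2.597 for Nid2, -2.519 for Col4a2, -1.666 for Col18a1, -1.654 for Smoc1, -1.192 for Agrn and -1.041 for Lamb1. It was 2.871 for Lamb3 and 0.799 for Fras1. In 7 of these genes (Col15a1, Frem1, Col4a1, Col4a2, Col18a1, Nid2 and Agrn) the inguinal change was a called rise, and Nid2 was the one of them with a called fall in the perivascular cells. For Smoc1 both changes were rises, for Lamb3 and Fras1 the inguinal fall was the called one, and for Lamb1 the perivascular fall was. The calls of Lamb1 and Fras1 were lost with the replicate block (adjusted p = 0.0515 and 0.0747; over 20 alternatives 2.55e-05 to 0.085 and 0.0127 to 0.127), and the other 9 were kept under all 20 alternatives run.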

How the results depend on the processing

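Of 62 called results of single genes in the 4 comparisons of 2 groups, 45 stayed called under all 21 alternatives, and of 11 called differences of stage changes 9 did under all 20. With library totals as the scale, the count of members lower between the progenitors was 7, that of members that rose in the perivascular cells 2, and that of positive differences of stage changes 1. With no filter on low counts that last count was 1. Over all genes, library totals called 7548 between the progenitors, 6226 for the perivascular stage and 3099 differences. The main run called 4687, 6198 and 2834. With limma-voom library weights the perivascular stage counts were 3 higher and 21 lower, and the inguinal fall count was 10. The differences of stage changes were then 4 positive and 20 negative. Over all genes voom called 10914 for the perivascular stage, 6052 for the inguinal stage and 8384 differences, against 6198, 3384 and 2834. With the 2 groups alone, 5 fell in the perivascular and 10 in the inguinal cells. Without the 3 libraries that stood apart, the perivascular counts were 2 and 23, the inguinal ones 13 and 8, and the negative differences 22. When each library was left out in turn, perivascular rises ran from 1 to 2 (2 without DPP4+ progenitor library 2), perivascular falls from 8 to 16 (16 without perivascular preadipocyte library 1), positive differences from 1 to 2 and negative ones from 8 to 18 (18 without perivascular preadipocyte library 1). The cause of these shifts was not tested. For no filter, the 2 groups alone and the runs with libraries left out, the number of all genes called is not given here. Those member counts have no background beside them. The perivascular stage change of Col4a2 turned from 0.101 to -0.503 without the 3 libraries, and that of Col4a6 from 0.101 to -1.32 with voom weights, -1.868 without the 3 libraries, and from -1.617 (without perivascular preadipocyte library 1) to 0.542 when each library was left out.

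With the replicate block for the shared pools, the counts higher and lower were 8 and 11 between the progenitors, 3 and 17 between the preadipocytes, 1 and 12 with perivascular stage, 8 and 4 with inguinal stage, and 1 and 8 for the difference of stage changes. Over all genes the block called 4197, 7885, 5486, 2988 and 2158 in the 5 comparisons. The main run called 4687, 8467, 6198, 3384 and 2834. Besides the 6 results named with their blocked values in the text (Col4a1, Lamb1, Fras1, Col18a1, Egfl6 and Lamc3), the block changed 0 calls of the members. Over all genes, library totals moved the median log2 change to 0.48, 0.27, 0.12, 0.40 and -0.21 in the 5 comparisons. Shares of chains without division by exon length kept the same leading chain of laminin alpha and of collagen IV in all 12 libraries, and turned that of laminin beta from Lamb2 to Lamb1 in 7. Lama1 and Frem2 had group means of 0.864 to 1.47 and 1.01 to 1.99 CPM, and whether depth limits their calls was not tested.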
